A study of Mus musculus with 2 samples.

Results

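Of the 21035 cells of mouse bone marrow culture analysed here, 2422 (11.5%) carried high levels of Ltf and Ngp, transcripts of the secondary granules of neutrophils. They are called Ltf/Ngp granulocytes below. A barcode was taken as a cell if it held at least 1000 unique molecular identifiers (UMIs, counts of single captured transcripts) and at most 10% mitochondrial UMIs. A cell was counted as an Ltf/Ngp granulocyte if the sum of its Ltf and Ngp UMIs was at least 20 per 10000 of its UMIs, here called the Ltf/Ngp score, and it held no UMI of the B cell gene Cd79a. The cells were thus chosen by their Ltf and Ngp UMIs, and the levels of these genes are given as a description.

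The cells were myeloid-derived suppressor cells (MDSC) grown in vitro. Bone marrow came from C57BL/6 mice, all female and 10 weeks old. Culture in both groups lasted 4 days in medium with the cytokines IL-6 and GM-CSF, added at 50 ng/mL apiece. The treated group received 1.5 µmol/L dabrafenib (DAB), an inhibitor of the kinase BRAF, and the control group received the same volume of DMSO. Single-cell RNA was captured from the 5′ end of transcripts, with 1 library per condition. How many mice contributed to a library is not stated in the sources used here, and no test between the conditions was possible. All intervals are 95% intervals, exact binomial for shares and exact Poisson for UMI counts and their ratios, and cover counting error only.

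Developing neutrophils fill their granules in sequence, because each granule takes up the proteins that are made while it forms. Primary granule proteins such as myeloperoxidase and elastase come first, in promyelocytes. Secondary granule proteins such as lactoferrin (Ltf), neutrophilic granule protein (Ngp), cathelicidin (Camp) and lipocalin 2 (Lcn2) follow in myelocytes and metamyelocytes, and gelatinase and surface receptors of the mature cell come last. Transcription factors of the C/EBP family, C/EBPε among them, are known regulators of the secondary granule genes.

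The DMSO library held 9855 barcodes and 106792967 UMIs, and the DAB library 11631 barcodes and 165506902 UMIs. Of these barcodes, 9621 and 11414 passed the filter. Ltf/Ngp granulocytes had a median of 7021 UMIs and 1834 genes in the DMSO library against 11808 UMIs and 2689 genes in the DAB library, so the DAB cells were covered more deeply. The libraries shared 152 barcode sequences, and none of these was an Ltf/Ngp granulocyte in both. Among barcodes marked as B cells, which do not transcribe Ltf or Ngp, the median score was 0, and 3 of 127 (2.36%, 0.49 to 6.75%) in the DMSO library and 2 of 202 (0.990%, 0.120 to 3.53%) in the DAB library reached the threshold of 20.

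A second difference between the libraries concerned transcripts of other cell types. Monocyte genes (Mmp12, Lpl, Spp1, Fn1 and Csf1r) made up at least 10 per 10000 UMIs in 8.54% (7.25 to 9.97%) of the DMSO and 28.6% (25.3 to 32.0%) of the DAB Ltf/Ngp granulocytes. The most abundant of them was Spp1, the gene of osteopontin, at 507 CPM (UMIs of the gene per 1000000 UMIs of the cells) in DMSO and 1013 CPM in DAB. In the B cell barcodes it was at 167 and 1172 CPM, so in DAB the level was no higher than this background, which itself differed between the libraries. When genes of antigen presentation (Cd74, H2-Aa, H2-Ab1 and H2-Eb1) were added to the set, 1484 DMSO cells (87.4%) and 464 DAB cells (64.1%) stayed under 10 per 10000. These are called the cells with few monocyte UMIs, and counts within them are given beside many of the main ones. Highest doublet scores fell on 12.9% of the DMSO and 13.1% of the DAB Ltf/Ngp granulocytes, against 7.0% and 9.21% of the other cells. The results were also computed without the cells of highest doublet scores.

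Ltf/Ngp granulocytes were less frequent in the DAB library. They made up 17.6% (16.9 to 18.4%, 1698 cells) of the DMSO cells and 6.34% (5.90 to 6.81%, 724 cells) of the DAB cells. The log2 ratio of the shares, DAB over DMSO, was -1.48 (-1.60 to -1.35). In a mixture of cells, a lower share of one type and a higher number of the others cannot be told apart.

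The scores themselves were lower as well. The median score of the Ltf/Ngp granulocytes was 179 in DMSO and 94.9 in DAB. Scores of 400 and over were found in 351 DMSO cells (20.7%, 18.8 to 22.7%) and 59 DAB cells (8.15%, 6.26 to 10.4%), whereas scores of 20 to 50 were found in 272 (16.0%) and 219 (30.2%). No Ltf or Ngp UMI was seen in 58.9% of all cells in DMSO and 69.7% in DAB.

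**Figure D1:**
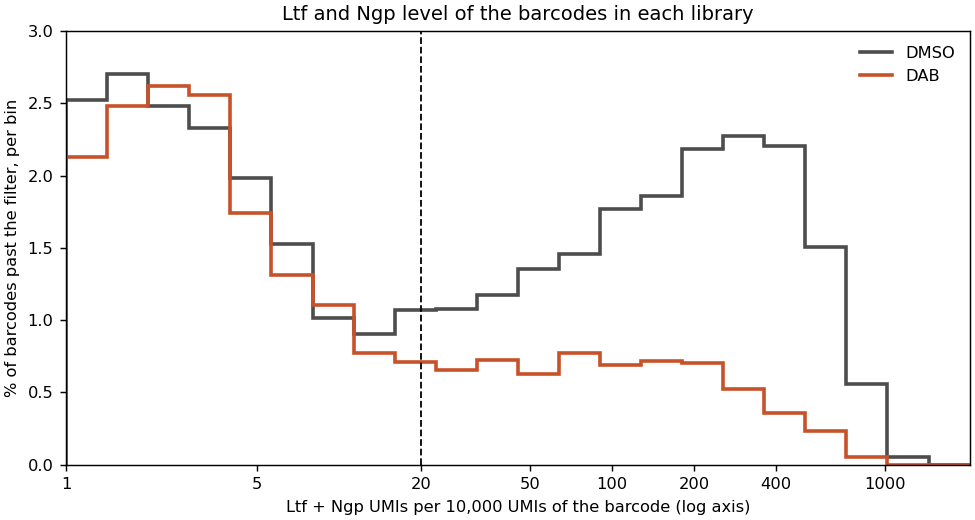
Share of the cells of each library (vertical axis, % per bin) by their Ltf and Ngp UMIs per 10,000 (horizontal log axis, from 1 upward, DMSO grey, DAB orange); the dashed line marks the threshold of 20. The DMSO library has a broad second peak above 100, and the DAB library is flat from the threshold to about 200.

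The threshold did not fall in an empty range. Cells just outside it (scores of 15 to 20) numbered 86 in DMSO and 59 in DAB, and cells just inside it (20 to 25) numbered 63 and 55. Camp was at 191 CPM just outside and 467 CPM just inside in the DMSO library, and at 62.7 CPM and 33.4 CPM in the DAB library. Lcn2 was at 4475 and 4677 CPM in DMSO and at 3445 and 4922 CPM in DAB.

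The label of the cells was checked on Camp, Lcn2 and Cd177, which the choice did not use directly. All 3 were more abundant in the Ltf/Ngp granulocytes than in the other cells of both libraries. For Camp, the precursor of an antimicrobial peptide, the log2 ratio over the other cells was 8.08 in DMSO and 7.73 in DAB. It was 3.73 and 2.71 for Lcn2, which binds bacterial siderophores, and 4.52 and 3.80 for Cd177, a neutrophil surface glycoprotein. These cells held 97.7% of all Camp UMIs in DMSO and 93.5% in DAB. For Lcn2 the shares were 68.1% and 30.8%, so in the DAB library most Lcn2 UMIs lay in other cells. Since genes that go with Ltf and Ngp must stand out in cells chosen for them, these ratios are a description.

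The 10 genes with the largest ratio over the other cells in both libraries, by the smaller of the values, were Ngp, Camp, Ltf, Itgb2l, Ceacam10, Cd177, Chil1, Lipg, Pglyrp1 and Ly6g. Itgb2l, an integrin beta chain, stood at 105 CPM in DMSO and 111 CPM in DAB, with log2 ratios over the other cells of 6.46 and 3.94. Pglyrp1, a peptidoglycan-binding granule protein, stood at 3835 and 4163 CPM, and Chil1, a chitinase-like secondary granule protein, at 372 and 196 CPM. Of 7021 genes tested, 209 (2.98%) were at least 2-fold higher in the Ltf/Ngp granulocytes than in the other cells in both libraries, from 4.96% of genes in DMSO and 4.34% in DAB.

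Levels of the chosen genes differed between the libraries by less than that of Camp. Ngp was at 20858 CPM in DMSO and 12519 CPM in DAB, and Ltf, the iron-binding lactoferrin, at 2405 and 1386 CPM. Camp was at 3937 and 846 CPM, a log2 ratio of -2.22 (-2.25 to -2.19). Lcn2 was at 9867 and 7763 CPM (-0.35, -0.36 to -0.33), and Cd177 was at 1132 and 1394 CPM (0.30, 0.27 to 0.33). Camp was thus the marker with the largest difference, and Cd177 the only one with the higher level in DAB.

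Because the score differed between the libraries, the cells were compared within 5 bins of the score. In these bins Ngp, which gives most of the score, differed by log2 ratios of -0.12 to 0.08. Ltf was not matched as closely, with ratios of -0.39, -0.73, -0.32, -0.22 and 0.34 from the lowest to the highest bin. Camp remained lower in DAB in every bin. Its level in DMSO was 697 CPM at scores of 20 to 50, 1436 at 50 to 100, 2446 at 100 to 200, 4924 at 200 to 400 and 9405 at 400 and over. In DAB the same bins held 148, 237, 770, 1877 and 4272 CPM. The log2 ratios were -2.24, -2.60, -1.67, -1.39 and -1.14, so the difference was larger in the cells with lower scores. Lcn2 differed by -0.13 to 0.03 and Cd177 by 0.51 to 0.66 in these bins. At like scores, Lcn2 was therefore nearly equal between the libraries, Camp was lower in DAB and Cd177 higher.

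**Figure D2:**
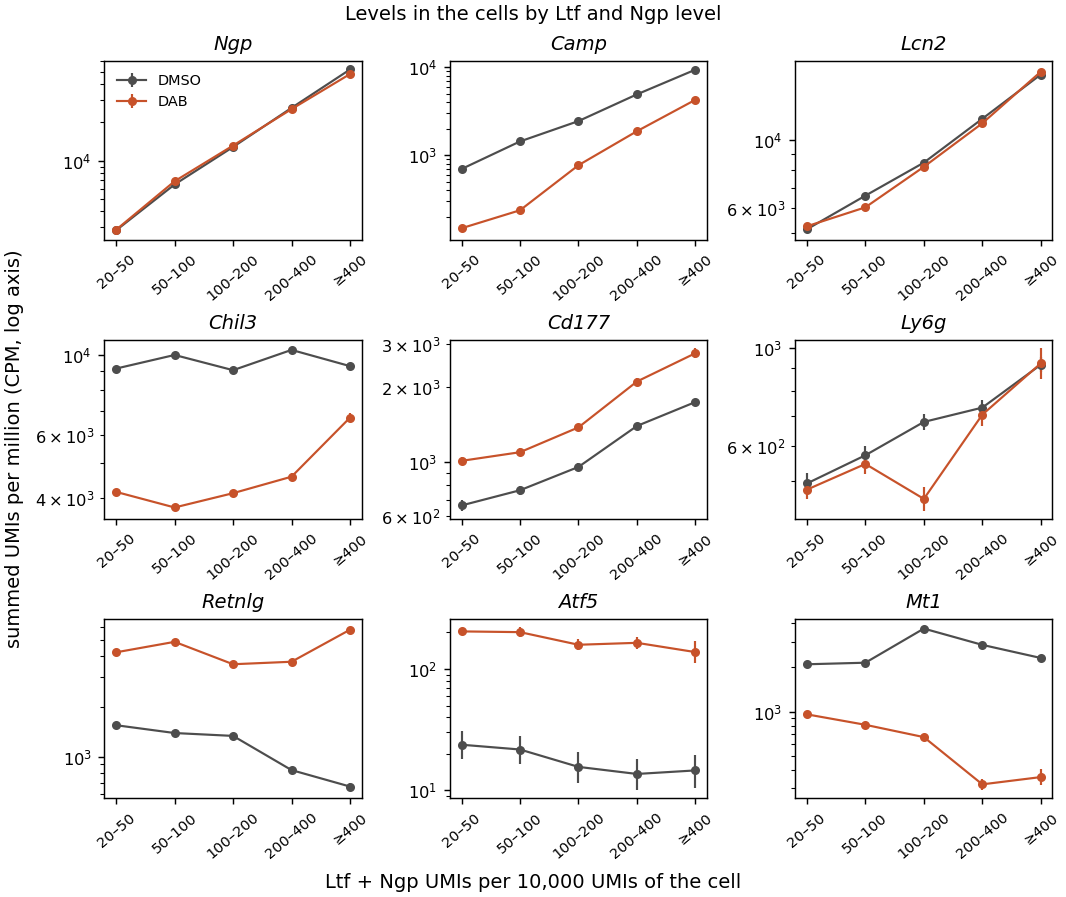
Levels of 9 genes (vertical log axes, CPM) in Ltf/Ngp granulocytes of the DMSO (grey) and DAB (orange) libraries, by bins of the Ltf/Ngp score (horizontal axes); error bars are exact Poisson 95% intervals. The lines coincide for Ngp and nearly so for Lcn2, and stand apart in all 5 bins for Camp, Chil3, Cd177, Retnlg, Atf5 and Mt1.

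Fewer cells held Camp in the DAB library. After thinning every cell to 1500 UMIs, a Camp UMI was found in 64.2% (61.9 to 66.6%) of the DMSO and 29.3% (26.0 to 32.8%) of the DAB Ltf/Ngp granulocytes. Cells too shallow for this, 54 of DMSO and 5 of DAB, were not counted. In B cell barcodes, with median depths of 4526 and 5788.5 UMIs, the shares were 1.64% and 0.505%. Without thinning, Camp was found in 78.2% and 47.7% of the Ltf/Ngp granulocytes. In cells with few monocyte UMIs, Camp stood at 4636 and 1207 CPM, a log2 ratio of -1.94, and was lower in all 5 bins.

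Camp, Ngp and Ltf lie on chromosome 9 of the mouse genome (mm10, GRCm38). Camp spans 109847379 to 109849617 on the minus strand, Ngp 110419747 to 110423012 and Ltf 111019271 to 111042767 on the plus strand, with 570130 bases between Camp and Ngp and 596259 between Ngp and Ltf. The sequences before their starts are shown because these neighbours parted in the DAB library. They are from RefSeq (GRCm38.p6), 5′ to 3′ on the strand of the gene, and were ended where the first annotated transcript begins. Capitals mark the letters TTNNGCAA on either strand, a form of the C/EBP motif.
Ltf, chr9:111019042-111019270, plus strand: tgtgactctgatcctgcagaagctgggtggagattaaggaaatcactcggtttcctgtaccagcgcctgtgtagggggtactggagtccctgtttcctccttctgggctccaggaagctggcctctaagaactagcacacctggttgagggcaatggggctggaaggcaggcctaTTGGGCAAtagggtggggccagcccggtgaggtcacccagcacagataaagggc
Ngp, chr9:110419558-110419746, plus strand: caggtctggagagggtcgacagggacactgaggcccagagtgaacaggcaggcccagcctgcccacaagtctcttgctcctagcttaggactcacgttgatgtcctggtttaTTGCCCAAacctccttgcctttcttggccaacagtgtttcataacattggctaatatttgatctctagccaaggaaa
Camp, chr9:109849618-109849706, minus strand: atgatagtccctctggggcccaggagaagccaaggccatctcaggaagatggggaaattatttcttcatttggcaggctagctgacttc

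In the 250 bases before the RefSeq start, Ltf held 1 match to these letters, Ngp 2 (the second lies past the stretch shown), Lcn2 1, and Camp and Cd177 none. Of the 11 secondary granule genes other than Ltf and Ngp that were tested and had a RefSeq promoter, Lcn2, Mmp8 and Fcnb held a match, with log2 ratios of DAB over DMSO of -0.35, 0.53 and -1.54. Of 32851 promoters, 9.56% hold a match in that window. The letters were chosen after several forms had been searched. A match is a description of the sequence, and binding was not measured.

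Of the 13 secondary granule genes tested, 5 were lower in DAB past the fold, and none was higher. This list leaves out Ltf and Ngp and includes Camp, Lcn2 and Cd177. Past the fold means 2-fold or more in either direction with an interval that leaves out 0. Over all 7021 genes tested, those with a mean of at least 10 CPM, 2.28% were lower and 3.7% higher by this rule. The median log2 ratio of the list was -0.35, and that of all genes 0.07. Beside Camp, the lower genes were Chil3, Hp, Cybb and Fcnb. Chil3, a chitinase-like lectin, was at 9593 CPM in DMSO and 4300 CPM in DAB (-1.16, -1.17 to -1.14). Cybb, the gp91 subunit of the phagocyte NADPH oxidase, was at 691 and 283 CPM (-1.29, -1.35 to -1.23). Haptoglobin (Hp) was at 374 and 169 CPM (-1.15), and ficolin B (Fcnb) at 107 and 36.6 CPM (-1.54).

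All 5 of these genes were lower in DAB in every score bin, as were 21.2% of all genes tested. All 5 remained past the fold in cells with few monocyte UMIs. As a mean over score bins, Cybb was at -0.94, under the fold. The list did not move as one. Mmp8, Pglyrp1, Itgb2l, Ltb and Cd177 were higher in DAB in every bin, with log2 ratios over all cells of 0.08 to 0.53. Of these, Ltb was at 111 and 119 CPM, below the 186 and 227 CPM of the B cell barcodes. Olfm4, a granule glycoprotein that marks a subset of neutrophils, was at 63.1 and 41.7 CPM (-0.60).

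The next stage of the series, gelatinase granule and mature neutrophil genes, held 5 of 23 genes higher and 1 lower past the fold, with a median of 0.17. Retnlg, a resistin-like secreted protein of neutrophils, was at 1125 CPM in DMSO and 4252 CPM in DAB (1.92, 1.89 to 1.94). The share of thinned cells with a Retnlg UMI was 29.7% (27.5 to 32.0%) in DMSO and 53.0% (49.3 to 56.7%) in DAB, against 2.46% and 6.57% of the B cell barcodes, where Retnlg was at 70.2 and 1057 CPM (3.91). Slpi, a protease inhibitor, was at 756 and 1856 CPM (1.30), beside 1879 and 870 CPM in the B cell barcodes, and Mmp25, a membrane-bound matrix metalloproteinase, at 46.5 and 94.5 CPM (1.02). Stfa2l1 and Hdc were also higher. Csf3r, the G-CSF receptor, was lower, at 88.9 and 38.1 CPM (-1.22, -1.39 to -1.06). Ly6g, the surface antigen of mouse neutrophils, was at 688 and 553 CPM (-0.31), and Mmp9, the gelatinase, at 296 and 273 CPM (-0.12).

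These values depended in part on the cells with monocyte UMIs. Without them, Retnlg was at 1133 and 2498 CPM (1.14), and its ratio ranged from -0.01 in the lowest to 2.91 in the highest score bin. Hdc, histidine decarboxylase, was then at a ratio of -0.08 and Slpi and Mmp25 were no longer past the fold, which left 2 of 23 genes higher, where 6.83% of all 6953 genes tested in these cells were. The median of the list turned to -0.13, with 10 of 23 above 0, so no direction held for the list. Ly6g was then at 768 and 411 CPM (-0.90) and Mmp9 at 309 and 186 CPM (-0.73).

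Primary granule genes were also found in these cells. Of the cells with Mpo, Elane and Prtn3 at 20 or more per 10000 UMIs, 79 of 169 in DMSO and 37 of 114 in DAB were Ltf/Ngp granulocytes. Elane, neutrophil elastase, was at 325 CPM in DMSO and 321 CPM in DAB over all Ltf/Ngp granulocytes, but its log2 ratios in the score bins were -0.84, 0.68, 0.33, -3.10 and -3.48, from the lowest to the highest. Prtn3, proteinase 3, was at 412 and 405 CPM. Mpo, myeloperoxidase, was at 19.6 and 4.10 CPM, the 1 gene of 11 past the fold (-2.26, -2.76 to -1.80). In DMSO, 200 of its 289 UMIs lay in the score bin of 20 to 50. Its ratio ranged from -4.04 to -0.73 over the alternatives, so it was under the fold in some. The median of the list was -0.02 over all cells, -0.34 as a mean over score bins and 0.41 in cells with few monocyte UMIs, so no direction held. Elane fell along the score in both libraries, with log2 ratios of the highest over the lowest bin of -3.19 and -5.63.

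Along the score, Ngp, Camp, Ltf, Itgb2l, Chil1, Adpgk, Agpat2, Cybb, Ceacam10 and Lcn2 rose most in both libraries. For Camp the log2 ratio of the highest over the lowest bin was 3.75 in DMSO and 4.84 in DAB, for Cybb 2.04 and 1.76, and for Lcn2 1.66 and 1.66. Adpgk, an ADP-dependent glucokinase, had ratios of 2.43 and 2.00. Some genes of monocytes and antigen-presenting cells fell, among them H2-Aa (-6.74 and -5.04), Clec4n (-5.29 and -5.12) and Mgl2 (-6.36 and -4.80). The chemokine gene Ccl4 fell too (-7.18 and -6.17). Ly6c2, a monocyte gene that neutrophil precursors also express, rose (0.82 and 0.44).

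Across all genes, 260 of 7021 were higher in the DAB Ltf/Ngp granulocytes past the fold and 160 were lower. Of the 260 higher genes, 233 were higher in all 5 score bins, and of the 160 lower genes, 149 were lower in all 5. Past the fold in the same direction in the other cells were 90 of the higher and 71 of the lower genes. In the other cells 2.13% of the genes tested were higher and 2.36% lower. In cells with few monocyte UMIs, 475 genes (6.83%) were higher and 147 (2.11%) lower. Of the original calls, 208 of 260 and 121 of 160 were among them.

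The 10 genes with the largest ratio among abundant genes included 4 of the stefin A family, Stfa2, Stfa3, Stfa2l1 and Cstdc5. Stefins inhibit cysteine cathepsins, and in mice the A family is a cluster of near-identical genes, so that reads may be split between them in an uncertain way. Stfa3 was at 72.0 CPM in DMSO and 665 CPM in DAB (3.21), Stfa2 at 235 and 1691 CPM (2.85), and Cstdc5 at 465 and 2839 CPM (2.61). A Stfa2 UMI was found in 7.48% (6.26 to 8.86%) of the thinned cells in DMSO and 39.5% (35.9 to 43.2%) in DAB, against 0% (upper bound 2.98%) and 6.06% of the B cell barcodes (13.8% and 55.1% of the Ltf/Ngp granulocytes before thinning). Stfa2 was at 7.02 and 284 CPM in the B cell barcodes, so its background also differed between the libraries. Of 7 genes of the list tested, 6 were higher past the fold, with a median of 2.61. The 1 that was not, Cstb, is the more distant stefin B, at 385 and 634 CPM (0.72). All 7 were higher in each of the 5 bins, as were 22.1% of all genes tested, and 6 remained past the fold in cells with few monocyte UMIs. In cells with no cell cycle UMI, picked on unthinned counts and thus also by depth, the median was 0.87, below the fold.

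The other genes among these 10 were Atf5, Stc2, Cox6a2, Cxcl3, Prg2 and Retnla. Atf5, a transcription factor of the amino acid response, was at 17.4 CPM in DMSO and 183 CPM in DAB (3.39, 3.20 to 3.59), with a UMI in 2.01% and 22.7% of the thinned cells and in 1.64% and 4.55% of the B cell barcodes. Stc2, the secreted stanniocalcin 2, was at 4.01 and 80.6 CPM (4.33, 3.95 to 4.73). Cox6a2, the muscle isoform of a cytochrome c oxidase subunit, was at 0.884 and 51.3 CPM (5.86, 5.07 to 6.78), from 13 UMIs in 8 DMSO cells and 539 UMIs in 187 DAB cells. Cxcl3, a ligand of the neutrophil receptor CXCR2, was at 83.5 and 742 CPM (3.15), and 10 cells held 50.0% of its UMIs in DMSO. In the B cell barcodes Cox6a2 was at 10.5 and 65.3 CPM and Cxcl3 at 15.2 and 770 CPM. By CPM these genes were thus no more abundant in the DAB Ltf/Ngp granulocytes than in the DAB B cell barcodes. Shares of thinned DAB cells with a Cox6a2 UMI were 4.87% and 6.06%, so no expression is read from Cox6a2. For Cxcl3 the shares did not follow the CPM, at 25.9% (22.7 to 29.2%) and 11.1% (7.10 to 16.3%). Prg2 and Retnla were concentrated in few cells. The 10 highest cells held 80.3% and 73.8% of the Prg2 UMIs and 66.0% and 71.6% of the Retnla UMIs.

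Among the 10 genes with the largest ratio in the other direction, Camp was joined by the metallothioneins. Mt1, which binds zinc and copper, was at 2673 CPM in DMSO and 720 CPM in DAB (-1.89, -1.93 to -1.86), and Mt2 at 233 and 57.3 CPM (-2.02). In the B cell barcodes Mt2 was at 147 and 71.7 CPM, so its DAB level was below theirs. In the score bins the Mt1 ratio was -1.14, -1.41, -2.46, -3.16 and -2.70. The share of thinned cells with a Mt1 UMI did not follow the CPM, at 33.6% (31.3 to 35.9%) in DMSO and 36.9% (33.3 to 40.5%) in DAB (50.2% and 76.5% before thinning), against 37.7% and 29.8% of the B cell barcodes, where Mt1 was at 1431 and 744 CPM. Car4, a membrane-bound carbonic anhydrase, was at 1467 and 392 CPM (-1.90), beside 362 and 346 CPM in the B cell barcodes, so its DAB level was near background. Eif4a2, an RNA helicase of translation initiation, was at 283 and 86.0 CPM (-1.72), and Gadd45b, a stress-induced gene, at 97.7 and 27.5 CPM (-1.83). In the B cell barcodes Eif4a2 was at 240 and 161 CPM and Gadd45b at 123 and 58.9 CPM. Eif4a2 in DAB and Gadd45b in both libraries were below these levels. Whether B cells transcribe both genes was not tested, so these levels give no background. The ratios are given as a description. Ffar2, a receptor of short-chain fatty acids on neutrophils, was at 55.9 and 18.1 CPM (-1.63). The other 3 were genes of monocytes and dendritic cells, Mmp12, Lpl and Ccl17, and 97.0% of the DMSO Ccl17 UMIs came from 10 cells. Mmp12 was at 190 and 38.1 CPM, below the 203 and 120 CPM of the B cell barcodes. Its ratio reversed to 3.78 (2.42 to 5.49) in cells with no cell cycle UMI, and no difference is read from it. Those cells were picked on unthinned counts, so the unequal depth of the libraries entered the choice.

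Amino acid response genes were the list with the most genes past the fold. This response runs from the kinase GCN2 through the factor ATF4 to genes of amino acid synthesis, uptake and tRNA charging. In Ltf/Ngp granulocytes 26 of 37 genes were higher in DAB and none was lower past the fold, with 35 above 0 and a median of 1.60 (quartiles 0.75 and 2.33). Of the 37, 30 were higher in every score bin, and the median in the bins ranged from 1.11 to 1.49. In cells with few monocyte UMIs 27 of 38 were higher, with a median of 1.80.

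Asns, asparagine synthetase, was at 28.3 CPM in DMSO and 128 CPM in DAB (2.18, 2.02 to 2.34), with a UMI in 3.16% (2.37 to 4.13%) of the thinned cells in DMSO and 13.4% (11 to 16.1%) in DAB, against 2.46% and 3.03% of the B cell barcodes (15.3% and 57.9% of the Ltf/Ngp granulocytes before thinning). Of the serine and one-carbon genes, Psat1 was at 14.3 and 73.4 CPM (2.36), Phgdh at 21.5 and 108 CPM (2.33) and Shmt2 at 10.5 and 54.0 CPM (2.37). Of the transporters, Slc7a5 was at 22.8 and 101 CPM (2.15) and Slc7a11, which imports cystine, at 54.8 and 166 CPM (1.60). Chac1, which degrades glutathione, was at 4.01 and 23.9 CPM (2.58), and the pseudokinase Trib3 at 16.9 and 93.3 CPM (2.46). Cth, cystathionine gamma-lyase, was counted with 2 UMIs in DMSO and 360 in DAB (7.98, 6.12 to 11.03).

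Some members of the response did not pass the fold. Atf4 itself was at 144 and 244 CPM (0.75), Ddit3 at 44.7 and 55.3 CPM (0.31), and Eif2ak4, the gene of GCN2, at 16.5 and 17.4 CPM (0.08, -0.21 to 0.36). Ddit4, an inhibitor of mTORC1, was at 317 and 176 CPM (-0.85) and was lower in every bin.

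Of the 26 higher genes, 21 had a RefSeq promoter under their symbol, and 7 of the 21 held the letters TGATGNAA, a form of the site bound by ATF4 with C/EBP factors, in the 250 bases before the start. Of the 30 tested genes of the list with a RefSeq promoter, 9 held the letters. Among the 9 were Atf3 and Nupr1, which were not higher past the fold. These letters are in 3.45% of the 32851 promoters. They were also chosen after other forms had been searched. Windows of 30 bases are shown for 4 of the 7, with the match in capitals, read on the strand of the gene (TTNCATCA where the match is on the other strand).
Asns, chr6:7693214-7693243, minus strand: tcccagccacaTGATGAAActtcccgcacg
Chac1, chr2:119351038-119351067, plus strand: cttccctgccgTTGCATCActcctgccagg
Pycr1, chr11:120643833-120643862, minus strand: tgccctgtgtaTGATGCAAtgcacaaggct
Slc7a11, chr3:50443661-50443690, minus strand: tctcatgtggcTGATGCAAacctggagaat

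Genes of the unfolded protein response, which widens the folding capacity of the endoplasmic reticulum, had a median of 0.62. Of 20 tested, 2 were higher past the fold, Sdf2l1 at 41.7 CPM in DMSO and 99.3 CPM in DAB (1.25) and Manf at 79.2 and 165 CPM (1.06). In the B cell barcodes Sdf2l1 was at 37.4 and 91.6 CPM (1.29), near its levels here. Whether B cells transcribe it was not tested, so its background is not known. In cells with few monocyte UMIs 4 of the 20 were higher, with a median of 0.79. Hspa5, the chaperone BiP, was at 185 and 347 CPM (0.91). Ribosome biogenesis genes held 5 of 11 higher, with a median of 0.84 and all 11 above 0. In cells with few monocyte UMIs 8 of 11 were higher, with a median of 1.31. Nop56, a core protein of small nucleolar particles, was at 7.82 and 25.7 CPM (1.72, 1.40 to 2.05). Both values were below the 19.9 and 44.2 CPM of the B cell barcodes. Whether B cells transcribe Nop56 was not tested, so that level is no measure of background. Cytosolic ribosomal proteins had a median of 0.28, with none of 80 past the fold.

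**Figure D3:**
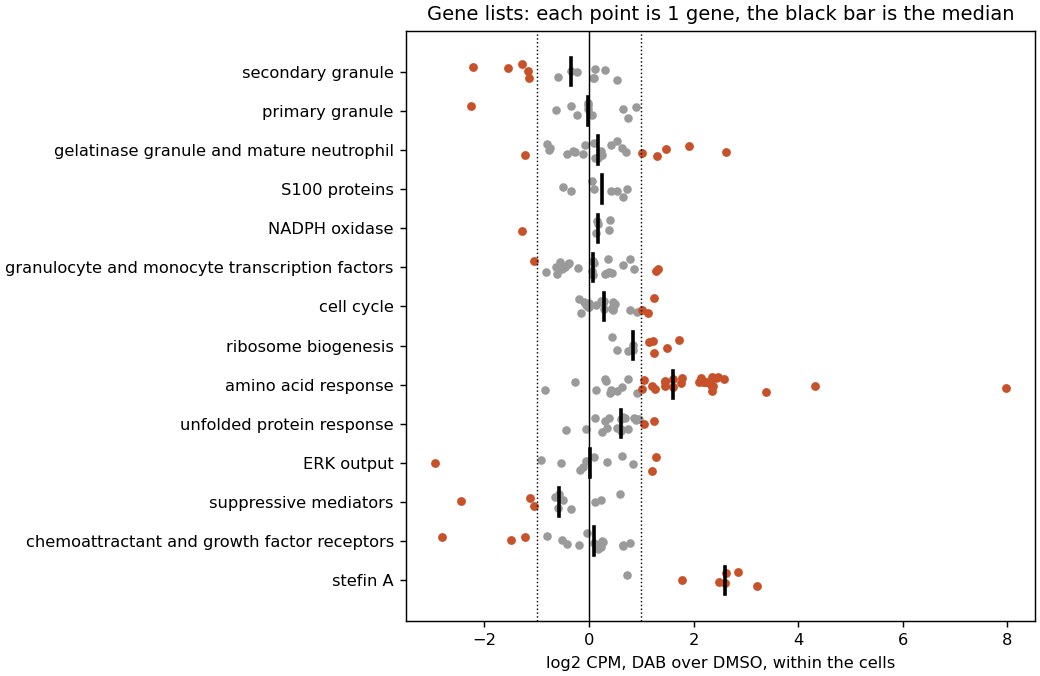
Log2 ratio of CPM, DAB over DMSO, in Ltf/Ngp granulocytes (horizontal axis) for the tested genes of 14 lists (vertical axis, 1 point per gene); orange points are past the fold, black bars are medians and dotted lines mark 2-fold. Amino acid response and stefin A genes lie mostly to the right, at medians of 1.60 and 2.61, and 5 secondary granule genes lie beyond the left dotted line.

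Among granulocyte and monocyte transcription factors, 2 of 26 were higher past the fold and 1 was lower, with a median of 0.07. Cebpe, the C/EBP factor of the secondary granule stage, was at 159 CPM in DMSO and 208 CPM in DAB (0.38) and was higher in every bin. Myb, a factor of dividing precursors, was at 6.59 and 16.6 CPM (1.33) and Myc at 25.8 and 62.6 CPM (1.28). In the B cell barcodes Myb was at 47.9 and 10.2 CPM and Myc at 73.7 and 126 CPM. Myb in DMSO and Myc in both libraries were below these levels. Whether B cells transcribe the 2 genes was not tested, so no background is known for them. Mxd1, an antagonist of MYC, was at 363 and 176 CPM (-1.05). As means over score bins, Mxd1 was at -0.88 and Myc at 0.92, both under the fold. Spi1, the gene of PU.1, was at 345 and 426 CPM (0.30), Zbtb7a at 67.4 and 85.2 CPM (0.34), Mafg at 97.9 and 105 CPM (0.10), Fosl2 at 77.8 and 54.1 CPM (-0.52) and Tcf7l2 at 25.6 and 14.5 CPM (-0.82).

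Targets of ERK, the kinase downstream of RAF, did not move together. Of 12 tested, Dusp6 (28.1 CPM in DMSO, 65.2 CPM in DAB, 1.21) and Myc were higher past the fold and Fos (42.6 and 5.52 CPM, -2.95, -3.36 to -2.56) was lower, with a median of 0.02. Without the cells with monocyte UMIs, Dusp6 was at 0.83. Fos was lower in all 5 bins there as well. In the B cell barcodes Fos was at 44.4 and 19.9 CPM and Myc at 73.7 and 126 CPM. Both genes were below these levels in both libraries. Whether B cells transcribe them was not tested, so these levels are no measure of background.

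Genes of immune function were mixed. Of the NADPH oxidase genes, which make the respiratory burst, Cybb was lower while Cyba, Ncf1, Ncf4 and Rac2 had log2 ratios of 0.16 to 0.40. Of 11 genes tied to suppression by MDSC, 3 were lower and none higher past the fold, with a median of -0.57. Among the lower genes, Nos2, inducible nitric oxide synthase, was at 41.9 CPM in DMSO and 7.72 CPM in DAB (-2.44, -2.79 to -2.10), and Cd274, the gene of PD-L1, at 58.9 and 28.6 CPM (-1.04). In the B cell barcodes Nos2 was at 38.6 and 1.28 CPM, so its DMSO level was near that background and no expression is read from it. In cells with few monocyte UMIs Nos2 remained past the fold, and Cd274 did not. The alarmins S100a8 and S100a9 were at 65087 and 51445 CPM (-0.34) and at 87098 and 61619 CPM (-0.50).

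Receptors showed 3 of 17 genes lower past the fold, Ccr2 and Csf3r among them, and none higher. Ccr2, a monocyte chemokine receptor, was at 24.7 and 3.52 CPM, below the 36.2 and 23.1 CPM of the B cell barcodes, and no difference is read from it. In cells with few monocyte UMIs Csf3r alone was lower past the fold. Cxcr2, the receptor of Cxcl3, was at 170 and 183 CPM (0.11). Both chains of the GM-CSF receptor were higher without reaching the fold, Csf2ra at 102 and 176 CPM (0.78) and Csf2rb at 357 and 562 CPM (0.65). Il6ra, the receptor of IL-6, was at 20.9 and 18.4 CPM (-0.19). Glycolysis genes held none of 18 past the fold, with a median of 0.03, interferon-stimulated genes none of 11, with a median of 0.18, and nuclear genes of oxidative phosphorylation 2 of 43, with a median of 0.12.

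Cells with cell cycle UMIs were found at every score. A cell was counted as cycling if it held at least 3 UMIs of 24 cell cycle genes after thinning to 1500 UMIs. This was the case for 23.1% (21.0 to 25.2%) of the DMSO and 26.1% (23.0 to 29.5%) of the DAB Ltf/Ngp granulocytes, against 14.9% and 11.3% of the other cells. By score bin, from the lowest to the highest, the share was 20.3%, 18.1%, 26.9%, 24.8% and 23.5% in DMSO and 24.8%, 25.2%, 25.2%, 31.1% and 25.4% in DAB, with intervals that overlapped in each bin. In cells with few monocyte UMIs the shares were 23.2% (21.1 to 25.5%) and 31.7% (27.4 to 36.1%). Of 24 cell cycle genes, 3 were higher past the fold, Mcm2, Mcm5 and Tyms, all genes of DNA replication, with a list median of 0.29. As a mean over score bins Tyms was at 0.95, under the fold. In cells with few monocyte UMIs 5 were higher, Mcm3 and Mcm6 in addition, with all 24 above 0 and a median of 0.70. Mki67 was at 197 CPM in DMSO and 178 CPM in DAB (-0.15), and Top2a at 142 and 173 CPM (0.29).

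**Figure D4:**
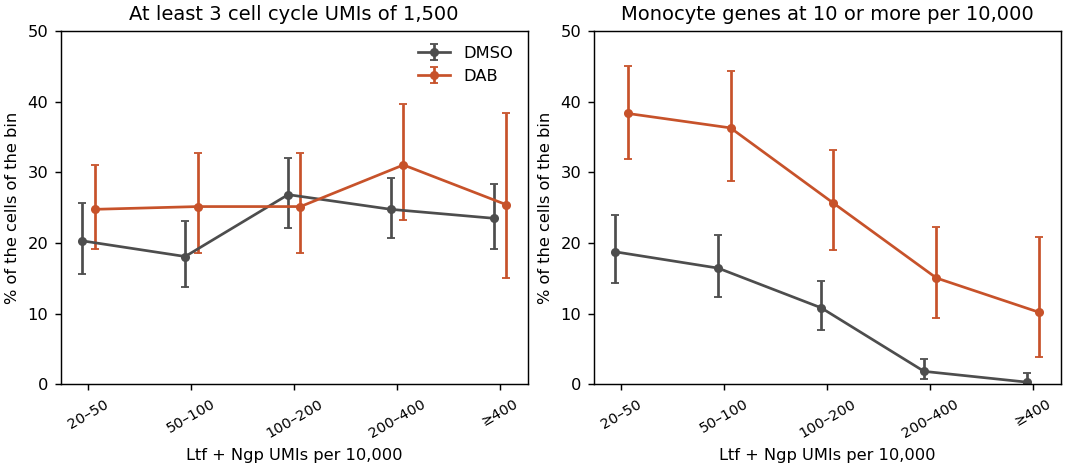
Left, share of Ltf/Ngp granulocytes with at least 3 cell cycle UMIs after thinning (vertical axis, %) by score bin (horizontal axis); right, share with monocyte genes at 10 or more per 10,000 UMIs. Points are DMSO (grey) and DAB (orange) with exact binomial 95% intervals. The cycling shares overlap in all bins, whereas the monocyte shares fall with the score from 18.8% to 0.285% in DMSO and from 38.4% to 10.2% in DAB.

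A pair of other cell sets was set beside the Ltf/Ngp granulocytes. Primary granule cells, with Mpo, Elane and Prtn3 at 20 or more per 10000 UMIs and a score under 20, numbered 90 in DMSO and 77 in DAB. Cells with a Ly6g UMI and a score under 20 numbered 1056 and 1484. The second set is not a pure neutrophil stage, since a single Ly6g UMI placed a cell in it at unequal median depths of 7215 and 12503.5 UMIs, 2.36% and 3.96% of the B cell barcodes held a Ly6g UMI too, and monocyte Spp1 was at 1547 and 3657 CPM in the set. After thinning, 52.2% (41.4 to 62.9%) and 59.7% (47.9 to 70.8%) of the primary granule cells and 9.40% (7.69 to 11.3%) and 8.03% (6.70 to 9.53%) of the Ly6g cells were cycling, so the share of the Ltf/Ngp granulocytes lay between these values in both libraries.

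The libraries were compared within these sets in the same way. Amino acid response genes had medians of 1.12 in primary granule cells and 1.34 in Ly6g cells, beside 1.60 in Ltf/Ngp granulocytes, and stefin A genes 2.47 and 2.44 beside 2.61. Chil3 was at 8941 CPM in DMSO and 2348 CPM in DAB in Ly6g cells (-1.93) and at 3360 and 4436 CPM in primary granule cells (0.40). Camp was at 30.3 and 21.9 CPM in primary granule cells and at 44.6 and 6.65 CPM in Ly6g cells, near the 56.1 and 12.8 CPM of the B cell barcodes, and no difference is read from it there. Lcn2 was at 394 CPM in DMSO and 1056 CPM in DAB in primary granule cells, beside 444 and 582 CPM in the B cell barcodes, so no ratio is read there, and at 2816 and 2629 CPM in Ly6g cells (-0.10). The differences between the sets were not tested.

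Other cell types were checked by their markers. The B cell genes Cd79a (by the choice of cells), Ms4a1 and Pax5 were at 0 in the Ltf/Ngp granulocytes of both libraries, and Cd74, which B cells share with antigen-presenting cells, gave nearly all of the list's 572 CPM in DMSO and 577 CPM in DAB. Of 8 macrophage genes, 8 were detected in DMSO and 6 in DAB (C1qa and Mrc1 at 0), with sums of 197 and 185 CPM led by Cd68. Of 13 monocyte genes all were detected in both, with sums of 2157 and 3570 CPM led by Ly6c2, which neutrophil precursors also express, at 1072 and 2262 CPM. Antigen presentation genes summed to 1002 and 973 CPM, with 10 of 11 detected and Cd209a at 0. Basophil or mast cell genes summed to 27.1 and 119 CPM, led by Hdc, and eosinophil genes to 33.8 and 179 CPM, led by Ear6 in DMSO and Prg2 in DAB. Erythroid genes summed to 9.45 and 15.5 CPM, led by Car2, with the globin genes at 0, T and NK cell genes to 12.6 and 5.14 CPM, led by Nkg7, and early progenitor genes to 45.1 and 63.1 CPM.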

How the data were processed

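The authors aligned the 10x Genomics 5′ v2 libraries with Cell Ranger 7.0.0 to mm10, per the labels and methods, and the deposited values are raw UMI counts per gene and barcode, with no normalization. Author cluster labels were not used here. Counts were summed over the Ltf/Ngp granulocytes of each library and divided by their total UMIs (CPM), with no pseudocount except 1 CPM in means over score bins. Of 32285 genes, those with a mean of at least 10 CPM were tested. Doublets were scored with Scrublet in scanpy 1.11.5, at 0.8% per 1000 barcodes, and kept, and leaving them out was an alternative. B cell barcodes held at least 5 UMIs of 6 B cell genes, Cd79a among them. Their level is a background only for genes that B cells do not transcribe. This was not checked for genes other than Ltf and Ngp. Intervals came from scipy 1.17.1, run with Python 3.11.15, numpy 2.4.6 and pandas 2.3.3, and were tested on simulated data. Random steps used seed 1.

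The 103 named genes are the label's markers, the 10 largest ratios in each direction with at least 50 CPM and 1 sign over the score bins, the 2 most abundant genes and the largest ratios of each list, the 10 highest over other cells, the 10 rising and 10 falling most along the score, and genes named in the study. Others are named as examples of the lists after their values were seen. The cells, lists (28, with 449 entries, of which 1 was not matched and 3 had older symbols) and rules were chosen with earlier results of these data known. Promoters were from RefSeq (GRCm38.p6), gene spans from GENCODE M21. The alternatives changed the score threshold, cell filters, scaling, weighting and gene filter. The set of cells with few monocyte UMIs was chosen after seeing the data. Values of some genes and 1 sequence are not reported here.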

Additional observations from a re-analysis of the deposited data

Results flagged for a closer look

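Of 103 named genes, 7 had log2 ratios of DAB over DMSO of opposite sign in the Ltf/Ngp granulocytes and in the other cells, each at least 0.3 in size with an interval that left out 0. The difference was not tested, because there was 1 library per condition. Lcn2 was at -0.35 in the Ltf/Ngp granulocytes and 0.67 in the other cells, S100a8 at -0.34 and 0.54, and S100a9 at -0.50 and 0.42. Ly6g was at -0.31 and 0.38, Agpat2 at -0.39 and 0.51, and Ccl3 at -0.45 and 0.36. Car2 went the other way, at 0.78 and -0.38. As a mean over score bins, Lcn2 and Agpat2 were at -0.03 in the Ltf/Ngp granulocytes, so at like scores their difference was near 0. Ly6g was at -0.15 by this mean, with -0.58 at scores of 100 to 200 and -0.07 to 0.01 in the other bins. Ccl3 was above 0 in the Ltf/Ngp granulocytes in 2 of 15 alternatives (up to 0.23), and Car2 was below 0 in 1 (-0.31). Both were near the background of the B cell barcodes in at least 1 library. Car2 was at 8.84 CPM in DMSO and 15.1 CPM in DAB against 15.2 and 14.7 CPM, and Ccl3 at 132 and 96.3 CPM against 10.5 and 102 CPM. In the other cells Ly6g was at 56.0 and 73.1 CPM, against 18.7 and 88.4 CPM in the B cell barcodes. By CPM its DAB level there was thus below that of the B cell barcodes. The share of thinned DAB cells with a Ly6g UMI was the other way. It was 5.75% (5.32 to 6.22%) of the other cells and 2.02% (0.553 to 5.09%) of the B cell barcodes.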

How the results depend on the processing

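With 1 library per condition no replicate could be left out, and differences between cultures were not measured. No paired analysis was possible because each condition has 1 library. Of 45 named genes past the fold, 41 kept their direction and 31 stayed past the fold in all of the 15 alternatives that gave a value. Adgre1, Cstdc5, Cybb, Fn1, Ly6c2, Mpo, Mxd1, Myc, Stfa2 and Tyms kept their direction but fell under the fold in some alternative. The medians of the secondary granule, gelatinase granule, amino acid response, unfolded protein response and ERK target lists moved within the quartiles of their genes in these alternatives, and the gelatinase granule median turned to -0.13 with few monocyte UMIs.

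The shares of Ltf/Ngp granulocytes were 19.6% (DMSO) and 7.94% (DAB) with a threshold of 10 (log2 ratio -1.31), 15.5% and 4.89% with 40 (-1.67), and 15.4% and 4.07% of all cells when those with few monocyte UMIs alone were counted (-1.92), a value that leaving out more DAB cells lowers by construction. Without the highest doublet scores the DMSO share was 16.7%.

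Genes higher and lower past the fold numbered 987 and 669 without the filter on low values, 62 and 47 with a minimum mean of 50 CPM, and 449 and 321 in cells with no cell cycle UMI. As a mean over score bins 169 were higher, and with few monocyte UMIs 475. The median of ribosome biogenesis genes was 0.75 by median of ratios, 0.75 with the total without the most abundant granule genes, 0.75 with the minimum of 50 CPM, 0.57 over score bins and 1.31 with few monocyte UMIs. The stefin A median was 2.90 without doublets and 0.87 in cells with no cell cycle UMI. The primary granule median was -0.34 over score bins, and it was 0.41 with few monocyte UMIs, where the cell cycle median was 0.70.

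Cycling shares were 66.6% (DMSO) and 74.0% (DAB) without thinning, 62.2% and 59.5% with at least 1 UMI, and 13.7% and 18.6% with at least 5. Mmp12 (3.78) and Trem2 (1.75) reversed in cells with no cell cycle UMI, which were picked on unthinned counts at unequal depths. Mgl2 there (1.02, -1.10 to 3.14) and Hdc with few monocyte UMIs (-0.079, -0.39 to 0.23) changed sign with intervals that include 0. The cause was not tested.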
